A study of Mus musculus with 33 samples.

Results

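The collagen chain genes of the mouse were described across the cell types of the colon mesenchyme. Members were all genes whose symbol is Col, a number, the letter a and a number, which gave 44 of the 31053 genes in the single-cell count matrices. They comprise 11 fibrillar chains, 9 FACIT chains (fibril-associated collagens with interrupted triple helices), 6 type IV chains of the basement membrane network, 6 type VI chains of beaded filaments, 4 transmembrane chains, 3 short-chain network chains, 2 multiplexins, 1 anchoring fibril chain and 2 others.

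Collagens are trimeric matrix proteins whose chains wind into a triple helix. Fibrillar collagens bear tension in loose connective tissue, and FACITs sit on their surface. Type IV collagen forms the sheet on which epithelium, endothelium, muscle and glia rest, and multiplexins lie where that sheet meets the stroma. In the gut wall most matrix is made by fibroblasts, while vessel cells and glia add to their own basement membranes.

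Colon tissue came from adult mice of both sexes with the outer muscle removed, and was treated with EDTA and collagenase. The whole mesenchyme library (1 library, genotype given as control, no treatment) held cells sorted as negative for EpCAM, an epithelial protein, and CD45, a leukocyte protein. The GFP-low libraries (2 replicates, PdgfraH2BeGFP, JAX strain 007669, no treatment) held unstained cells sorted for weak nuclear GFP, a reporter carried at Pdgfra, the gene of a platelet-derived growth factor receptor of gut fibroblasts. Nothing in the labels says that the libraries came from separate animals or how many animals were pooled, so every p-value below measures only the spread between these libraries, which may be technical. The other 6 chromatin accessibility and 24 bulk RNA samples of the series were not used here.

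After filtering, whole mesenchyme held 6793 cells and the GFP-low replicates 1 and 2 held 4834 and 6025, with median unique molecular identifier (UMI) counts of 4429, 6446.5 and 7025 per cell. All barcodes together held 41863444, 39190629 and 52313765 UMIs. The libraries shared 6 to 11 cell barcodes by pair, beside 4.29 to 6.02 given by the size of the barcode pool. Between both GFP-low libraries the gene counts of the 4 classes compared lay apart by more than counting error (chi-square per degree of freedom 29.5 to 175.5), so they are not 1 library deposited under 2 labels; this does not show whether they came from separate animals. Values of 3 libraries are given below in the order whole mesenchyme, GFP-low replicate 1, GFP-low replicate 2.

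Cells were assigned to classes by counting marker genes per cell, with no collagen among the markers, and class names mean resemblance to a marker list. Cd81 fibroblasts (at least 6 of 9 markers, among them Cd81, Cd34 and Pi16) numbered 415, 2928 and 3818 in the 3 libraries. Telocyte-like cells, named after subepithelial cells with high Pdgfra (at least 4 of 7 markers), numbered 826, 24 and 23. Adamdec1 fibroblasts, which carry the metalloprotease gene Adamdec1, numbered 2580, 637 and 732. In whole mesenchyme there were 744 blood endothelial, 61 lymphatic endothelial, 71 pericyte-like, 99 smooth muscle or myofibroblast-like and 52 glia-like cells. The GFP-low libraries held at most 9 cells of any of these classes, too few to sum. Leukocyte-like cells numbered 17, 102 and 53, no cell passed the epithelial or mesothelial gate, and 1895, 1132 and 1383 cells passed none. Levels are UMIs of a gene scaled to 1000000 UMIs of the class (CPM) with exact 95% Poisson intervals, which cover counting error only. Each transcript is counted once near its 3′ end, so transcript length does not enter. Transcripts were measured, not protein.

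Genes outside the gates bore on the telocyte label. Bmp7 and Wnt5a, ligand genes known from these cells, stood at 148, 258 and 55.1 CPM and at 196, 392 and 343 CPM in telocyte-like cells, against 22.7, 18.0 and 12.0 CPM and 32.3, 10.5 and 30.2 CPM in Adamdec1 fibroblasts. The gate gene Pdgfra had 1132, 440 and 331 CPM in telocyte-like cells, against 325, 93.3 and 141 CPM in Adamdec1 fibroblasts. Telocyte-like cells of the GFP-low libraries thus carried less Pdgfra than those of whole mesenchyme.

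Type IV chains are encoded in head-to-head pairs, and the windows around the start sites of Col4a1 and Col4a2 are shown because both transcripts followed each other across the classes below. They are set beside those of Col1a2 and Col3a1, the most abundant fibrillar chains with an entry. Each holds 250 bases before the start and 50 after it (RefSeq, GRCm38.p6), 5′ to 3′ on the gene's strand. Capitals mark 3 motifs and their reverse complements, namely the TATA box motif TATAAA, the CCAAT motif and the GC box motif GGGCGG; these motifs do not overlap each other here. The Col4a1 window lies at chr8:11312777-11313076 on the minus strand and the Col4a2 window at chr8:11312555-11312854 on the plus strand, with 78 bases in common. The Col1a2 window is chr6:4505368-4505667 and the Col3a1 window chr1:45311288-45311587, both on the plus strand.
Col4a1: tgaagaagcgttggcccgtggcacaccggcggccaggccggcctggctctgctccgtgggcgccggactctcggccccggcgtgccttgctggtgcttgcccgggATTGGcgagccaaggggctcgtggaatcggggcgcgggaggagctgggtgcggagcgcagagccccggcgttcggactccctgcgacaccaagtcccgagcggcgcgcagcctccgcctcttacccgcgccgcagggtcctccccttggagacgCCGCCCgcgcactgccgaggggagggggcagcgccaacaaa
Col4a2: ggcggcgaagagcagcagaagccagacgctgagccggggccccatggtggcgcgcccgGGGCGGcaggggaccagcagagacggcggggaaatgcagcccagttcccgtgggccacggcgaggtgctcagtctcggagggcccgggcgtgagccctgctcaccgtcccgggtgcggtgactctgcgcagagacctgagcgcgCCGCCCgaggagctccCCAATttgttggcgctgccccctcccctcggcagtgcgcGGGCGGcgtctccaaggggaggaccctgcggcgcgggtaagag
Col1a2: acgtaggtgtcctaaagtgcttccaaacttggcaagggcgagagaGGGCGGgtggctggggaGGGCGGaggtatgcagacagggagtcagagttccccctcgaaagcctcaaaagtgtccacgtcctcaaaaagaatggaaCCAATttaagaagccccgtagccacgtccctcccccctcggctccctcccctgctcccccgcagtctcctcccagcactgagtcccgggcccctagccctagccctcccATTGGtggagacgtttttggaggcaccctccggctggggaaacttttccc
Col3a1: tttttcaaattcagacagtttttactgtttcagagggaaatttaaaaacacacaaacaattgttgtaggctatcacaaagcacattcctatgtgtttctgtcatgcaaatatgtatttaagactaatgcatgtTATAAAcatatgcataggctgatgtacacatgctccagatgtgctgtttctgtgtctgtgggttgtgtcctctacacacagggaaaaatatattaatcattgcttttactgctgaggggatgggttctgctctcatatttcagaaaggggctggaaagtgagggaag
Of the 44 members 35 had a window, in 38 windows. The GC box GGGCGG was found in 60.5% of the members' windows and in 35.7% of all 32851 mouse windows. CCAAT was found in 34.2% of the members' and 37.4% of all windows, and TATAAA in 13.2% of the members' and 13.6% of all windows. The Col3a1 window held TATAAA and neither other motif, while those of Col4a1, Col4a2 and Col1a2 held CCAAT and the GC box but no TATAAA. A match describes these letters only.

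Collagen transcripts were most abundant in the fibroblast classes. In whole mesenchyme the 44 genes gave 1.92% of the UMIs of Cd81 fibroblasts, 1.51% in telocyte-like cells and 1.85% in Adamdec1 fibroblasts. The share was 1.01% in smooth muscle-like, 0.955% in pericyte-like and 0.657% in glia-like cells. It was lowest in blood endothelium at 0.547% (95% exact binomial interval 0.538% to 0.557%) and lymphatic endothelium at 0.499% (0.470% to 0.530%). GFP-low replicate 1 gave 1.95%, 2.12% and 1.81% in Cd81 fibroblasts, telocyte-like cells and Adamdec1 fibroblasts, and replicate 2 gave 1.29%, 1.46% and 1.31%. So the share varied more between the GFP-low replicates than between fibroblast classes within either of them. In whole mesenchyme, stricter gates gave 1.95%, 1.51% and 2.07% in Cd81 fibroblasts, telocyte-like cells and Adamdec1 fibroblasts. Cells with at least 3000 UMIs gave 1.90%, 1.50% and 1.67%. The order of Cd81 and Adamdec1 fibroblasts thus depended on the gate.

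**Figure D1:**
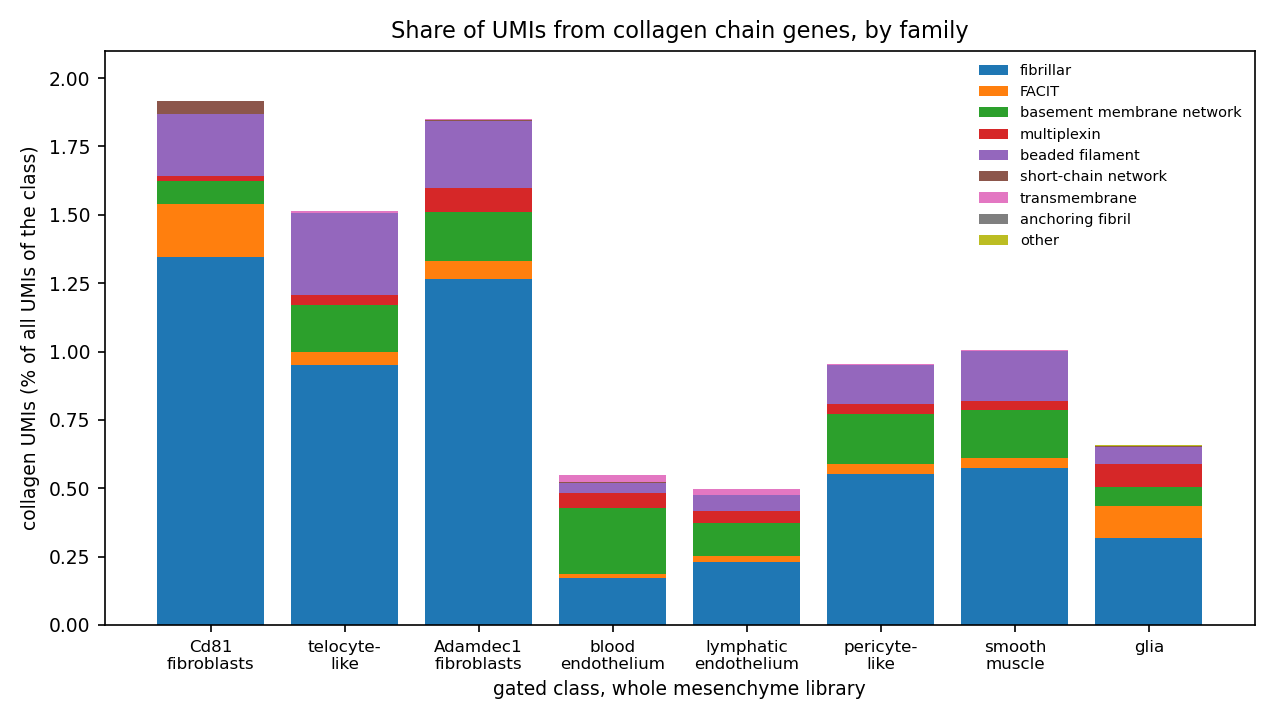
Share of each class's UMIs that came from collagen chain genes in the whole mesenchyme library (bars, % of all UMIs), split by collagen family. Fibrillar chains make up most of each fibroblast bar, and type IV chains are the largest family in the blood endothelium bar.

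Part of the collagen signal outside fibroblasts moved with fibroblast transcripts. The 3 Adamdec1 fibroblast markers were all detected in every class and summed to 1839 CPM in blood endothelium, 2013 in lymphatic endothelium, 2108 in glia-like, 5195 in pericyte-like and 8566 in smooth muscle-like cells, beside 13609 in Adamdec1 fibroblasts and 8241 in the free RNA of barcodes under 100 UMIs. Blood endothelium had 13.6% of the Adamdec1 level of Adamdec1 fibroblasts and 13.7% of their Col3a1 level. Glia-like cells had 14.7% and 15.1%, pericyte-like cells 38.2% and 39.8%, lymphatic endothelium 14.6% and 18.7%, and smooth muscle-like cells 65.5% and 48.0%. Type I chains did not all match in this way: glia-like cells had 31.1% of the Col1a1 and 20.7% of the Col1a2 level of Adamdec1 fibroblasts. Leukocyte-like cells of GFP-low replicates 1 and 2 had 29.2% and 35.4% of the Adamdec1 level of the Adamdec1 fibroblasts of their library and 64.0% and 37.3% of their Col3a1 level, with collagen shares of 1.05% and 0.543%. Levels were therefore also taken over cells with Adamdec1 under 20 UMIs per 10000, which kept 643 of 744 blood endothelial, 53 of 61 lymphatic, 48 of 71 pericyte-like and 47 of 52 glia-like cells. Only 7 of 99 smooth muscle-like cells were left, so no such level is given for them. Among the low-Adamdec1 cells the collagen share was 0.412% in blood endothelium, 0.279% in lymphatic endothelium, 0.518% in pericyte-like and 0.552% in glia-like cells. These cells still held 558, 428, 651 and 326 CPM of Adamdec1 in that order of classes, beside 425 CPM in Cd81 fibroblasts. The limit was set on Adamdec1 alone, and it lowered fibroblast transcripts of this kind but did not remove them.

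**Figure D2:**
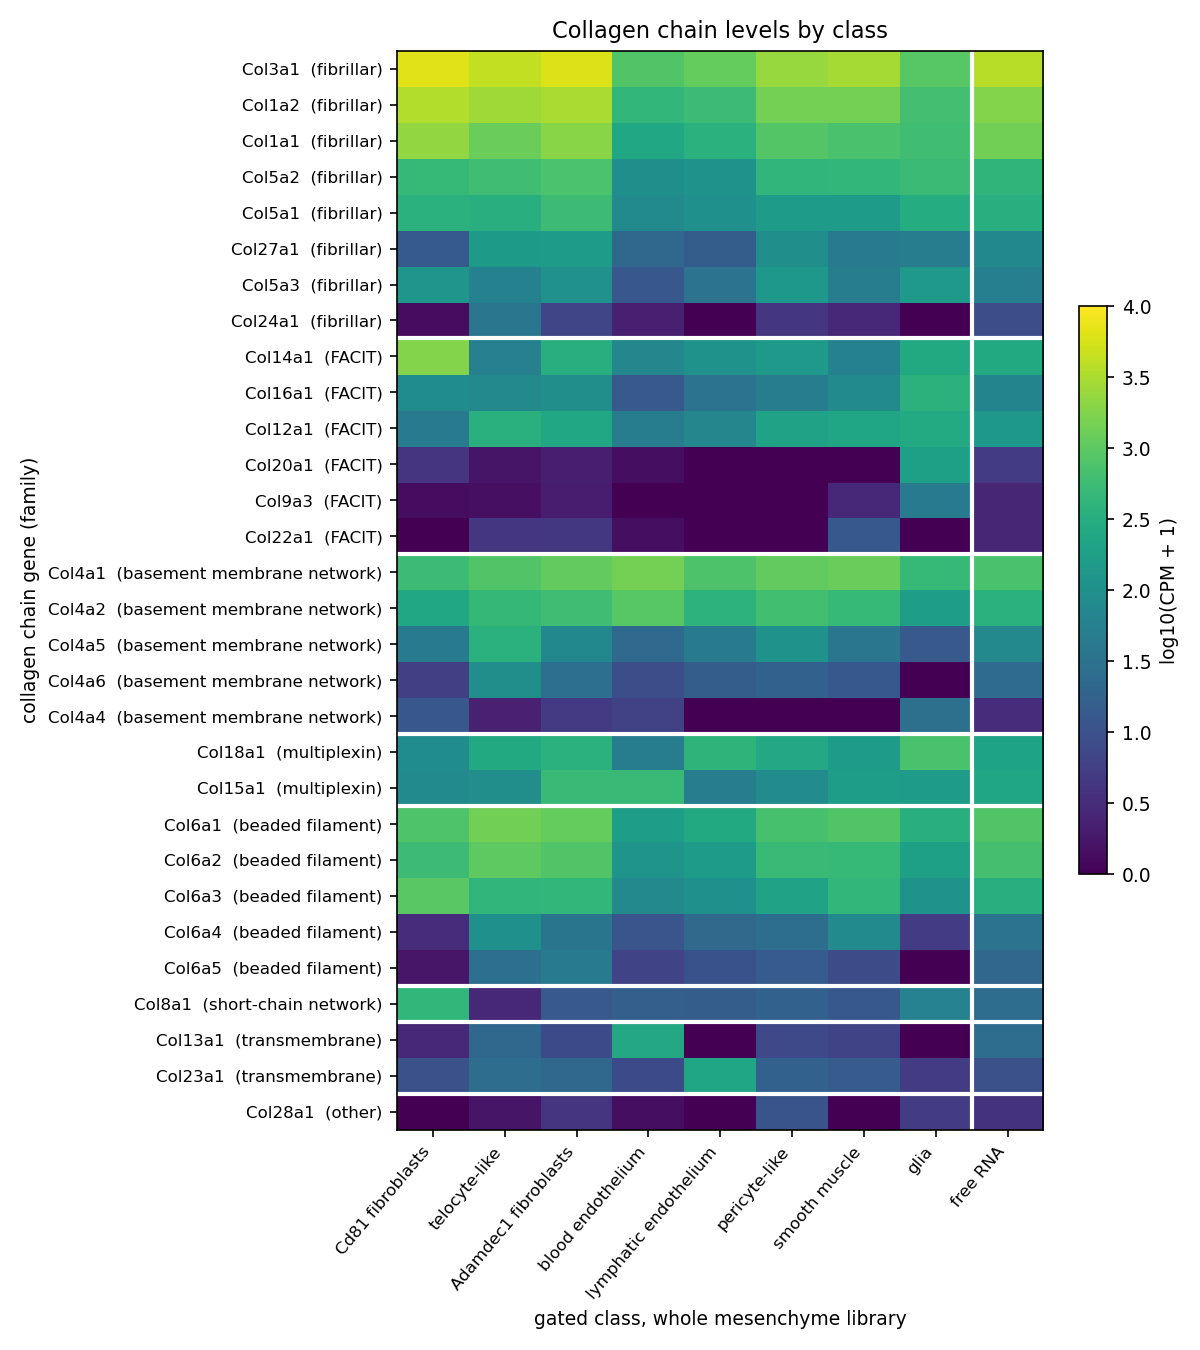
Levels of the 30 collagen chain genes that reach 10 CPM in a class of the whole mesenchyme library, as log10(CPM + 1), by family (rows) and class (columns), with free RNA of the same library in the last column. Col13a1 stands out in blood endothelium, Col23a1 in lymphatic endothelium, Col20a1 and Col9a3 in glia-like cells and Col8a1 in Cd81 fibroblasts.

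Fibrillar chains held 70.2% of the collagen UMIs of Cd81 fibroblasts, 62.9% in telocyte-like cells and 68.3% in Adamdec1 fibroblasts, but 31.5% in blood endothelium. Col3a1, the type III chain of pliable tissue, stood at 6729 CPM in Cd81 fibroblasts, 4343 in telocyte-like cells and 6056 in Adamdec1 fibroblasts. It was 2412 CPM in pericyte-like cells, 911 over those with low Adamdec1, and 827 CPM in blood endothelium, 323 over those with low Adamdec1. Col1a1 and Col1a2, the chains of type I collagen, had 2222 and 3519 CPM in Cd81 fibroblasts and 1914 and 3125 CPM in Adamdec1 fibroblasts. In low-Adamdec1 blood endothelium they had 79.5 and 118 CPM, and in low-Adamdec1 glia-like cells 452 and 412 CPM. Of the type V chains, which set fibril width, Col5a2 showed another order. It was 730 CPM in Adamdec1 fibroblasts, 596 in telocyte-like cells and 480 in Cd81 fibroblasts. Glia-like cells had 533 CPM of it (557 over low-Adamdec1 cells) and blood endothelium 96.9 CPM (41.5). Col5a1 was 543 CPM in Adamdec1 fibroblasts, 364 in Cd81 fibroblasts, 338 in telocyte-like and 299 in glia-like cells. The minor fibrillar chain Col24a1 was highest in telocyte-like cells at 35.9 CPM, beside 5.86 CPM in Adamdec1 fibroblasts.

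Type IV chains were the largest collagen family in blood endothelium, with 44.3% of its collagen UMIs. In lymphatic endothelium they held 24.5%, below the 46.1% of fibrillar chains, and in pericyte-like cells 19.1%, below 57.7%. Cd81 fibroblasts had 4.46% and Adamdec1 fibroblasts 9.81%. Col4a1 stood at 1461 CPM in blood endothelium (1414 to 1510), 1204 in smooth muscle-like, 1109 in Adamdec1 fibroblasts, 1079 in pericyte-like cells and 551 in Cd81 fibroblasts. Col4a2, whose protein joins Col4a1 in the common trimer, had 922, 479, 596, 618 and 241 CPM in those classes. Both were as high in low-Adamdec1 blood endothelium, at 1495 and 971 CPM. There were 1.58 Col4a1 UMIs per Col4a2 UMI in blood endothelium, 1.86 in Adamdec1 fibroblasts, 2.29 in Cd81 fibroblasts and 2.70 in glia-like cells. Both genes overlap by 85 bases at their 5′ ends, away from the 3′ ends counted here.

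The other type IV pairs had separate patterns. Col4a5 and Col4a6, which occur together in epithelial and muscle basement membranes, peaked in telocyte-like cells, at 352 CPM (335 to 370) and 93.9 CPM (85.1 to 103). Col4a5 was 114 CPM in pericyte-like cells, 39.9 CPM over those with low Adamdec1, and 74.0 CPM in Adamdec1 fibroblasts. Col4a3 and Col4a4, known from the kidney glomerulus, were scarce in whole mesenchyme, with at most 28.7 CPM (7 UMIs) of Col4a4 in glia-like cells and 9.36 CPM of Col4a3 in blood endothelium. Col4a3 and Col4a4 overlap by 114 bases.

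**Figure D3:**
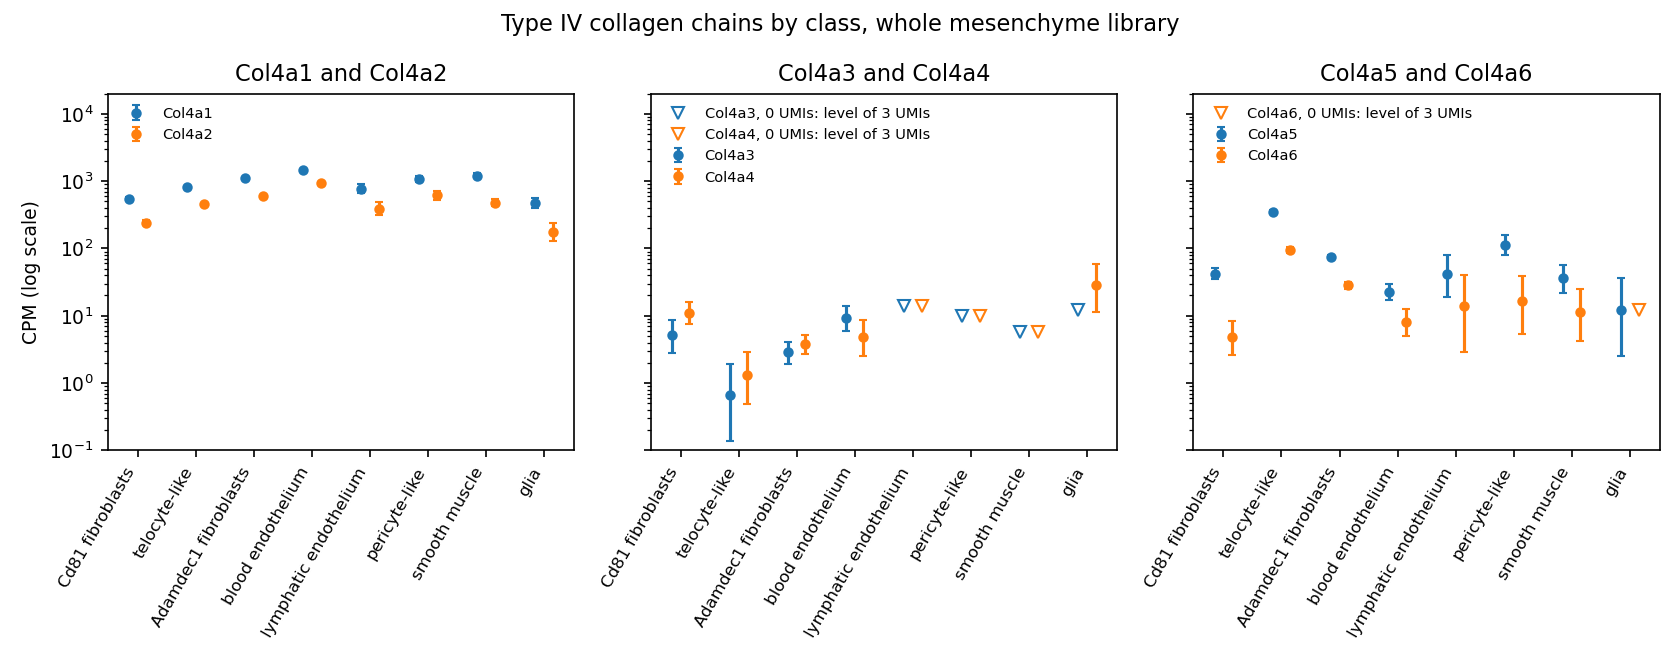
Levels of the 6 type IV chains by class in the whole mesenchyme library (CPM, log scale; bars are exact 95% Poisson intervals). Col4a1 and Col4a2 peak in blood endothelium at 1461 and 922 CPM and Col4a5 and Col4a6 in telocyte-like cells at 352 and 93.9 CPM; open triangles mark the level of 3 UMIs where none was counted.

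The multiplexins had different patterns across vessels, glia and fibroblasts. Col15a1, a bridge between basement membrane and fibrils, was as high in blood endothelium as in Adamdec1 fibroblasts, at 490 CPM (463 to 519) and 503 CPM, and 509 CPM over low-Adamdec1 endothelium. In lymphatic endothelium it was 46.6 CPM, and 1 UMI was left over low-Adamdec1 cells (5.78 CPM). Col18a1, the source of endostatin, was highest in glia-like cells at 701 CPM (600 to 815), followed by lymphatic endothelium at 396 CPM (316 to 490), with 48.0 CPM in blood endothelium. Over low-Adamdec1 cells Col18a1 had 758, 445 and 23.5 CPM in those 3 classes.

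The transmembrane chains marked opposite vessel types. Col13a1, a membrane collagen of cell contacts, was 255 CPM in blood endothelium (236 to 276) and had no UMI in lymphatic endothelium, where 3 UMIs would be 14.0 CPM. Col23a1 was 233 CPM in lymphatic endothelium (173 to 307) and 6.92 CPM in blood endothelium (4.03 to 11.1). Fibroblast classes of the same library had 1.86 to 20.4 CPM of Col13a1 and 8.91 to 26.2 CPM of Col23a1. Within blood endothelium, 31 cells with at least 2 of 4 venous markers had 22.7 CPM of Col13a1 (4.68 to 66.3, 3 UMIs), against 310 CPM (285 to 336) in 606 cells with no UMI of those markers. Col4a1 was 657 CPM in the vein-like cells against 1385 CPM in the others, and Col15a1 was 310 CPM in the vein-like cells against 489 CPM in the others. Vein-like levels depended on the gate. All collagens together gave 0.237% of the UMIs of these 31 cells, but 0.101% over 21 cells with stricter gates. In the others the share was 0.547% and 0.532%.

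Glia-like cells had FACIT chains that other classes nearly lacked. Col20a1 stood at 189 CPM in glia-like cells (138 to 252, 46 UMIs) and at most at 2.97 CPM in any other class of whole mesenchyme. Col9a3, best known from cartilage, had 45.1 CPM there (22.5 to 80.7, 11 UMIs) and at most 1.91 CPM elsewhere. Col16a1 was 365 CPM in glia-like cells and 12.2 to 93.9 CPM in the other 7 classes. Over low-Adamdec1 glia-like cells these 3 chains had 216, 55.2 and 387 CPM. Free RNA held 3.91, 1.68 and 63.7 CPM of them.

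The type VI chains Col6a1 and Col6a2 were highest in telocyte-like cells at 1405 and 1035 CPM. Col6a3, the large chain of the classic type VI trimer, was highest in Cd81 fibroblasts at 938 CPM. Per Col6a1 UMI there were 1.17, 1.10 and 1.22 Col6a3 UMIs in Cd81 fibroblasts, 0.308, 0.244 and 0.231 in telocyte-like cells and 0.382, 0.286 and 0.375 in Adamdec1 fibroblasts. The remaining members were rare: Col22a1 reached 11.4 CPM in smooth muscle-like cells (6 UMIs), Col28a1 10.0 CPM in pericyte-like cells (3 UMIs), and Col2a1, Col10a1, Col19a1, Col25a1, Col9a2 and Col6a6 had 1 to 8 UMIs over all cells. Col11a1 had none.

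Cd81 fibroblasts were compared with Adamdec1 fibroblasts of the same library. Col8a1, Col14a1, Col6a3, Col4a3 and Col4a4 rose in Cd81 fibroblasts, while Col15a1, Col18a1, Col12a1, Col27a1, Col13a1, Col23a1, Col28a1, Col4a1, Col4a2, Col4a6, Col5a2 and 4 of the 5 type VI chains tested fell. The type I and type III chains did not pass the test. Sums per library and class were tested with edgeR's quasi-likelihood test over 11757 genes, with Benjamini-Hochberg adjustment over all of them, the library as a block and a threshold of 0.05. Of the 44 members 28 passed the filter on low counts, 5 rose and 15 fell, where 11.6% of all tested genes rose and 12.0% fell. The median log2 difference was -0.45 over these members and -0.003 over all genes tested. In 18 members the 3 libraries of one class all lay beyond those of the other, as did 25.4% of all genes tested. Markers of the opposite class were also detected. The 9 Cd81 markers summed to 8179, 11245 and 8017 CPM in Cd81 fibroblasts and to 1821, 3533 and 2584 CPM in Adamdec1 fibroblasts, and the 3 Adamdec1 markers to 612, 359 and 202 CPM in Cd81 fibroblasts and to 13609, 12551 and 13653 CPM in Adamdec1 fibroblasts. In whole mesenchyme the median cell of Cd81 fibroblasts had 6661 UMIs and that of Adamdec1 fibroblasts 3412. Their part in the differences was not tested.

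Col8a1, a short-chain collagen that forms hexagonal sheets, had 447, 422 and 515 CPM in Cd81 fibroblasts, against 11.9, 12.6 and 14.7 CPM in Adamdec1 fibroblasts. Its log2 difference was 5.22 (SE 0.14, edgeR adjusted p = 2.38e-07), and the free RNA of whole mesenchyme held 26.3 CPM. The FACIT Col14a1, which coats fibrils, had 1795, 2155 and 1861 CPM in Cd81 fibroblasts, against 328, 459 and 494 CPM in Adamdec1 fibroblasts (log2 difference 2.28, SE 0.12, edgeR adjusted p = 1.41e-06). Both classes were well apart in every library for these chains.

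The FACIT Col12a1 went the other way from Col14a1. It had 43.1, 41.3 and 43.7 CPM in Cd81 fibroblasts, against 239, 286 and 239 CPM in Adamdec1 fibroblasts (-2.49, SE 0.13, edgeR adjusted p = 1.50e-06). The third tested FACIT, Col16a1, had 86.5, 127 and 77.0 CPM in Cd81 fibroblasts and 93.9, 121 and 83.3 CPM in Adamdec1 fibroblasts, and the classes overlapped.

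Both multiplexins were low in Cd81 fibroblasts. Col15a1 had 81.3, 48.3 and 24.6 CPM in Cd81 fibroblasts, against 503, 445 and 317 CPM in Adamdec1 fibroblasts (-3.10, SE 0.17, edgeR adjusted p = 2.24e-06). Col18a1 had 85.7, 93.1 and 59.6 CPM in Cd81 fibroblasts, against 361, 386 and 244 CPM in Adamdec1 fibroblasts (-1.97, SE 0.12, edgeR adjusted p = 2.84e-06). For both genes the highest Cd81 value lay below the lowest Adamdec1 value.

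**Figure D4:**
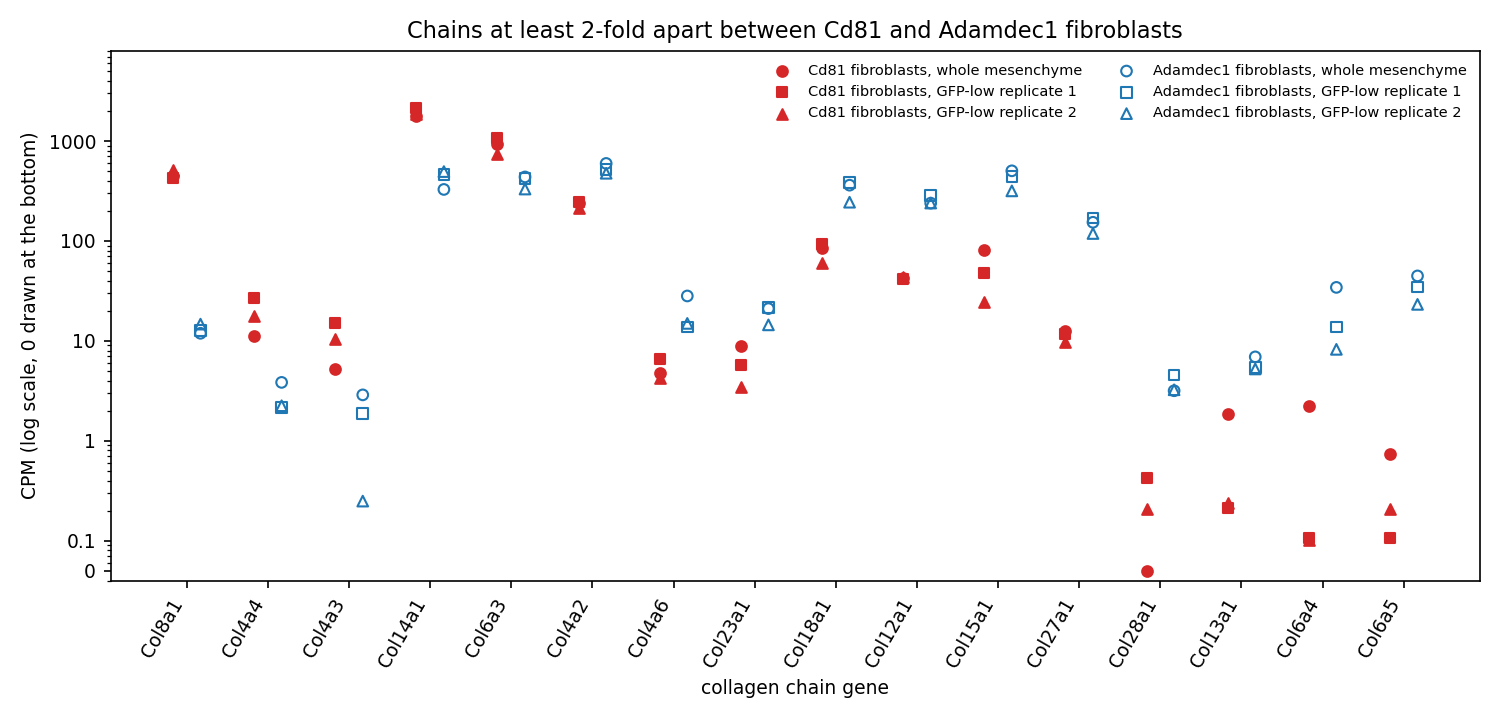
CPM (log scale) of the 16 collagen chain genes that passed the test with at least a 2-fold difference, in Cd81 fibroblasts (filled red) and Adamdec1 fibroblasts (open blue), 1 symbol per library. The libraries of the 2 classes do not overlap for any gene shown; Col8a1 lies at 422 to 515 CPM in Cd81 fibroblasts and 11.9 to 14.7 CPM in Adamdec1 fibroblasts.

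The type VI chains parted within the family. Col6a3 had 938, 1077 and 740 CPM in Cd81 fibroblasts, against 437, 420 and 331 CPM in Adamdec1 fibroblasts (1.29, SE 0.12, edgeR adjusted p = 3.81e-05). Its partner chains Col6a1 (-0.46, SE 0.10, edgeR adjusted p = 0.00851) and Col6a2 (-0.63, SE 0.10, edgeR adjusted p = 0.00174) fell, Col6a1 not without GFP-low replicate 1 (adjusted p = 0.130). The later-found chains Col6a5 and Col6a4 were near 0 in Cd81 fibroblasts. Col6a5 had 2, 2 and 6 UMIs (0.742, 0.105 and 0.206 CPM) in Cd81 fibroblasts, against 465, 129 and 93 UMIs (44.7, 34.7 and 23.2 CPM) in Adamdec1 fibroblasts. Col6a4 had 2.23, 0.105 and 0.103 CPM in Cd81 fibroblasts, against 34.3, 13.7 and 8.23 CPM in Adamdec1 fibroblasts. The fitted log2 differences were -6.98 (SE 0.28, edgeR adjusted p = 4.00e-07) for Col6a5 and -5.49 (SE 0.40, edgeR adjusted p = 1.01e-05) for Col6a4.

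Type IV chains parted by pair. Col4a1 had 551, 484 and 413 CPM in Cd81 fibroblasts, against 1109, 973 and 770 CPM in Adamdec1 fibroblasts (-0.89, SE 0.11, edgeR adjusted p = 0.000294). Col4a2 had 241, 246 and 211 CPM in Cd81 fibroblasts, against 596, 516 and 475 CPM in Adamdec1 fibroblasts (-1.10, SE 0.12, edgeR adjusted p = 0.000133). The scarce pair Col4a3 and Col4a4 was higher in Cd81 fibroblasts. Col4a4 had 11.1, 26.6 and 17.8 CPM in Cd81 fibroblasts, against 3.84, 2.15 and 2.24 CPM in Adamdec1 fibroblasts (2.63, SE 0.34, edgeR adjusted p = 0.000359). Col4a3 had 5.20, 15.0 and 10.5 CPM in Cd81 fibroblasts, against 2.88, 1.88 and 0.249 CPM in Adamdec1 fibroblasts (2.45, SE 0.48, edgeR adjusted p = 0.00500). The values in Adamdec1 fibroblasts rest on 40, 8 and 9 UMIs of Col4a4 and 30, 7 and 1 of Col4a3. Col4a6 fell, with 4.83, 6.53 and 4.25 CPM in Cd81 fibroblasts and 28.1, 13.7 and 15.0 CPM in Adamdec1 fibroblasts (-1.59, SE 0.25, edgeR adjusted p = 0.00128), while its neighbour Col4a5 did not pass (-0.30, SE 0.19, edgeR adjusted p = 0.299).

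Among the fibrillar chains Col27a1, known from cartilage, had 12.6, 11.7 and 9.80 CPM in Cd81 fibroblasts, against 154, 170 and 119 CPM in Adamdec1 fibroblasts (-3.60, SE 0.13, edgeR adjusted p = 2.90e-07). Col5a2 fell (-0.44, SE 0.11, edgeR adjusted p = 0.0204), and its classes overlapped; it did not pass without GFP-low replicate 1 (adjusted p = 0.154) or without replicate 2 (0.0581). Col1a1 had 2222, 2743 and 1173 CPM in Cd81 fibroblasts and 1914, 2147 and 1111 CPM in Adamdec1 fibroblasts, higher in all 3 libraries but short of the threshold (0.30, SE 0.10, edgeR adjusted p = 0.0618), though past it without whole mesenchyme (0.36, adjusted p = 0.00756). For Col1a1 the gap between the GFP-low replicates was larger than that between the classes. Col3a1 (0.20, SE 0.09, edgeR adjusted p = 0.168) and Col1a2 (0.15, SE 0.09, edgeR adjusted p = 0.287) were higher in Cd81 fibroblasts in 2 of 3 libraries.

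The transmembrane chains and Col28a1 were low in both classes. Col23a1 had 8.91, 5.74 and 3.43 CPM in Cd81 fibroblasts, against 21.0, 21.5 and 14.5 CPM in Adamdec1 fibroblasts (-1.70, SE 0.18, edgeR adjusted p = 0.000116). Col13a1 had 1.86, 0.211 and 0.240 CPM in Cd81 fibroblasts, against 6.92, 5.38 and 5.23 CPM in Adamdec1 fibroblasts (-3.73, SE 0.50, edgeR adjusted p = 0.000482). Col28a1 had 0, 8 and 6 UMIs in Cd81 fibroblasts and 33, 17 and 13 UMIs in Adamdec1 fibroblasts (-3.63, SE 0.47, edgeR adjusted p = 0.000393).

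In telocyte-like cells over Adamdec1 fibroblasts, Col4a5, Col4a6, Col24a1, Col13a1 and Col6a4 rose, and Col14a1, Col8a1, Col15a1 and Col6a5 fell. The other tested type IV chains, Col4a1 (-0.11, SE 0.18, edgeR adjusted p = 0.848) and Col4a2 (-0.28, SE 0.17, edgeR adjusted p = 0.414), did not pass. Of 26 members tested 5 rose and 4 fell, where 4.33% of 11009 genes rose and 6.31% fell. The median log2 difference was -0.16 over these members and -0.013 over all genes tested. In 6 members, and in 14.6% of all genes tested, the libraries of both classes did not overlap. The GFP-low libraries held 24 and 23 telocyte-like cells, so their values rest on few cells. All 3 Adamdec1 markers were detected in telocyte-like cells and summed to 11612, 9055 and 11627 CPM, beside 13609, 12551 and 13653 CPM in Adamdec1 fibroblasts. The smooth muscle actin gene Acta2 had 626, 2546 and 1892 CPM in telocyte-like cells, against 152, 80.4 and 75.8 CPM in Adamdec1 fibroblasts. The 6 smooth muscle markers, of which 6, 4 and 5 were detected in telocyte-like cells and all in Adamdec1 fibroblasts, summed to 161, 187 and 453 CPM in telocyte-like cells and 157, 113 and 98.5 CPM in Adamdec1 fibroblasts; Cnn1 was at 0 in the GFP-low telocyte-like cells. Their part in the differences was not tested.

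Col4a5 had 352, 369 and 251 CPM in telocyte-like cells, against 74.0, 38.5 and 49.4 CPM in Adamdec1 fibroblasts (2.47, SE 0.19, edgeR adjusted p = 1.26e-09). Col4a6 had 93.9, 110 and 61.2 CPM in telocyte-like cells, against 28.1, 13.7 and 15.0 CPM in Adamdec1 fibroblasts (1.96, SE 0.21, edgeR adjusted p = 2.34e-07). The X-linked pair thus stood apart in every library. Col24a1 had 35.9, 14.4 and 18.4 CPM in telocyte-like cells, against 5.86, 0.538 and 3.49 CPM in Adamdec1 fibroblasts (2.66, SE 0.34, edgeR adjusted p = 3.76e-06). Col13a1 (1.61, SE 0.36, edgeR adjusted p = 0.00274) had 20.4, 33.5 and 6.12 CPM in telocyte-like cells and 6.92, 5.38 and 5.23 CPM in Adamdec1 fibroblasts. Col6a4 (1.45, SE 0.21, edgeR adjusted p = 2.78e-05) was higher in 2 of 3 libraries, with 101, 43.1 and 6.12 CPM in telocyte-like cells and 34.3, 13.7 and 8.23 CPM in Adamdec1 fibroblasts. The GFP-low telocyte-like cells held only 3 and 3 UMIs of Col24a1, 7 and 1 of Col13a1 and 9 and 1 of Col6a4.

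Of the chains that fell, Col14a1 had 53.5, 163 and 196 CPM in telocyte-like cells, against 328, 459 and 494 CPM in Adamdec1 fibroblasts (-2.05, SE 0.22, edgeR adjusted p = 2.09e-07). Col15a1 had 93.9, 153 and 257 CPM in telocyte-like cells, against 503, 445 and 317 CPM in Adamdec1 fibroblasts (-1.68, SE 0.26, edgeR adjusted p = 4.32e-05). Col8a1 had 1.78, 9.57 and 6.12 CPM in telocyte-like cells, against 11.9, 12.6 and 14.7 CPM in Adamdec1 fibroblasts (-2.32, SE 0.48, edgeR adjusted p = 0.00152). Its telocyte-like values rest on 8, 2 and 1 UMIs. The gaps were widest in whole mesenchyme for all 3 genes. Without that library Col24a1 (2.94, adjusted p = 0.0915) and Col13a1 (1.78, 0.279) kept their size but no longer passed. Col6a5, at -0.76 over all libraries, was -1.31 (0.322), Col6a4 was 1.03 (0.557), and Col8a1 shrank to -0.91 (0.792). Free RNA of the GFP-low libraries was rich in Cd81 markers, with 10067 and 6050 CPM in all beside 2416 CPM in whole mesenchyme, and its part in these values was not tested.

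Within Cd81 fibroblasts, cells with Pi16 or Dpp4 (31, 432 and 374 cells), genes of an adventitial fibroblast state, were compared with cells with Grem1 (238, 1442 and 2125 cells), a BMP antagonist gene. Of 23 members tested 4 rose (Col14a1, Col5a3, Col8a1 and Col4a2) and 6 fell (Col4a4, Col27a1, Col4a3, Col4a5, Col6a3 and Col18a1), where 9.14% of 10385 genes rose and 10.8% fell. The groups did not overlap in 3 members and in 15.2% of all genes tested, and the median log2 difference was -0.055 over the members and -0.0033 over all genes. The Grem1 gene is the gate itself and was not tested. The 7 pericyte markers summed to 23.6, 6.76 and 6.61 CPM in Pi16 cells (2 to 4 detected) and to 19.0, 17.3 and 13.8 CPM in Grem1 cells (5 to 6 detected), with Higd1b at 0 in both, and their part was not tested.

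Col4a4 had 4.72, 15.9 and 7.24 CPM in Pi16 cells, against 14.4, 32.6 and 21.6 CPM in Grem1 cells (-1.30, SE 0.18, edgeR adjusted p = 5.32e-05), lower in each library although the ranges overlap. Col27a1 had 9.44, 5.75 and 4.09 CPM in Pi16 cells, against 15.7, 12.0 and 10.9 CPM in Grem1 cells (-1.25, SE 0.24, edgeR adjusted p = 0.00115). The Pi16 values rest on 1, 47 and 23 UMIs of Col4a4 and 2, 17 and 13 of Col27a1. Col4a3 (-0.90, SE 0.28, edgeR adjusted p = 0.0353) rested on GFP-low replicate 1, without which it was -0.14 (adjusted p = 0.911), and it did not pass with DESeq2 (0.422) or with no block (0.561). Col23a1 had 0, 13 and 5 UMIs in Pi16 cells, against 18, 68 and 63 UMIs in Grem1 cells (-1.05, SE 0.37, edgeR adjusted p = 0.0580), and among the alternatives run passed only with no filter on low counts and with cells of at least 3000 UMIs. Col14a1 had 2238, 2689 and 2358 CPM in Pi16 cells, against 1722, 1958 and 1696 CPM in Grem1 cells (0.39, SE 0.06, edgeR adjusted p = 0.000170). Col14a1 and Col8a1, high in Cd81 fibroblasts as a whole, were thus higher still in the Pi16 cells, Col8a1 with 505, 552 and 603 CPM in Pi16 cells, against 416, 403 and 477 CPM in Grem1 cells (0.32, SE 0.08, edgeR adjusted p = 0.00542). DESeq2 in place of edgeR called 1 rising and 1 falling member. Without GFP-low replicate 1 there were 1 and 2, and without GFP-low replicate 2 there were 2 and 2, so most of these calls depended on both replicates. Col14a1 and Col4a4 passed with any 1 library left out, while Col27a1 did not pass without GFP-low replicate 2 (adjusted p = 0.111) nor Col8a1 without either GFP-low replicate (0.267 and 0.117). Taking the libraries as unpaired, with no block, gave 0 and 0.

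Within Adamdec1 fibroblasts, cells with Nrg1 or Wnt4 and no Fgf10 (755, 157 and 187 cells) were compared with cells with Fgf10 and neither of these (393, 159 and 183 cells); all 3 genes encode secreted growth factors. Col6a4, Col6a5, Col4a5 and Col18a1 rose in the Nrg1/Wnt4 cells, and Col12a1 and Col14a1 fell. These are 4 and 2 of 23 members tested, where 1.83% of 8584 genes rose and 1.50% fell. The groups did not overlap in 3 members and in 7.41% of all genes, and the medians were 0.047 over the members and 0.0068 over all genes. Col6a4 had 62.4, 21.3 and 10.0 CPM in Nrg1/Wnt4 cells, against 12.0, 6.88 and 6.51 CPM in Fgf10 cells (2.05, SE 0.26, edgeR adjusted p = 3.70e-05). Col12a1 had 216, 174 and 138 CPM in Nrg1/Wnt4 cells, against 308, 442 and 411 CPM in Fgf10 cells (-1.07, SE 0.15, edgeR adjusted p = 0.000121), with no overlap. Other genes differed between these cells. The 7 pericyte markers summed to 50.2, 88.6 and 30.1 CPM in Nrg1/Wnt4 cells (4 to 7 detected), against 94.8, 216 and 129 CPM in Fgf10 cells (4 to 6 detected, Higd1b at 0). The Fgf10 sums were mostly Rgs5, with 71.8, 169.1 and 98.6 CPM, against 16.96, 58.3 and 18.1 CPM in Nrg1/Wnt4 cells. The list did not move as a whole. In whole mesenchyme Kcnj8 (14.1 against 8.62 CPM) and Abcc9 (7.998 against 4.789 CPM) were higher in Nrg1/Wnt4 cells, but lower in both GFP-low libraries. Cox4i2 was higher in Nrg1/Wnt4 cells in every library. The 7 telocyte markers summed to 685, 572 and 435 CPM in Nrg1/Wnt4 cells, against 470, 365 and 326 CPM in Fgf10 cells. Sox6, Foxl1 and Bmp3 were at 0 by the gate. Agt had 75.8, 95.3 and 80.3 CPM in Nrg1/Wnt4 cells, against 16.3, 18.7 and 7.44 CPM in Fgf10 cells. Pdgfra and F3 were higher in Nrg1/Wnt4 cells only in whole mesenchyme. Adamdec1 itself was higher in Nrg1/Wnt4 cells in every library. Grem1 had 116, 204 and 172 CPM in Nrg1/Wnt4 cells, against 628, 1628 and 948 CPM in Fgf10 cells. The median cell had 3467, 6088 and 5355 UMIs in Nrg1/Wnt4 cells and 5710, 6839 and 5931 UMIs in Fgf10 cells. Their part in the differences was not tested.

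Col18a1 had 438, 422 and 300.1 CPM in Nrg1/Wnt4 cells, against 276, 309 and 200.0 CPM in Fgf10 cells (0.60, SE 0.11, edgeR adjusted p = 0.00261). The other calls were Col6a5 (0.92, SE 0.22, edgeR adjusted p = 0.0143), higher in 2 of 3 libraries, Col4a5 (0.68, SE 0.17, edgeR adjusted p = 0.0228) and Col14a1 (-0.47, SE 0.12, edgeR adjusted p = 0.0258). DESeq2 called 1 rising member, Col18a1, and no falling one, with p above the threshold after adjustment for Col12a1 (0.0555) and Col6a4 (0.0656). Without whole mesenchyme 1 member rose (Col18a1) and 2 fell (Col12a1 and Col16a1), and without GFP-low replicate 1 there were 2 (Col6a4 and Col18a1) and 1 (Col12a1). With no block none was called. The Nrg1/Wnt4 and Fgf10 cells belong to the Adamdec1 class against which telocyte-like cells were set, so both comparisons share cells.

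**Figure D5:**
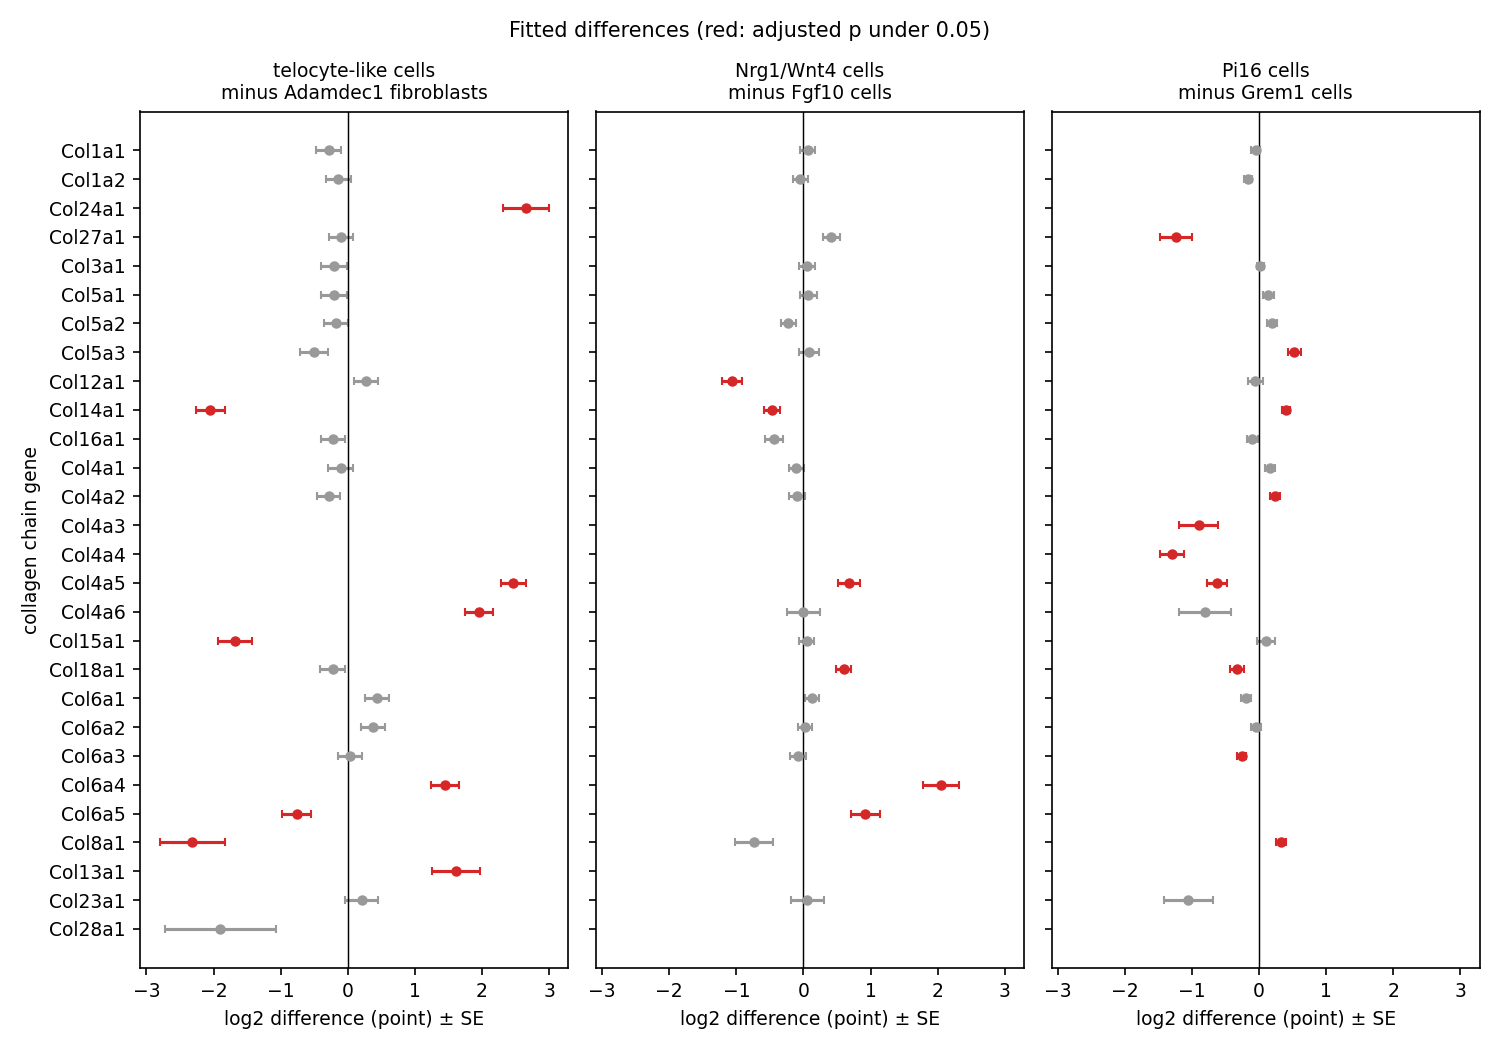
Fitted log2 differences (points) with their SE (bars) for the collagen chain genes tested in telocyte-like cells over Adamdec1 fibroblasts, in Nrg1/Wnt4 cells over Fgf10 cells and in Pi16 cells over Grem1 cells, each over 3 libraries; red marks an edgeR adjusted p under 0.05. Col4a5, Col4a6 and Col24a1 lie furthest to the right in the first panel, at 2.47, 1.96 and 2.66.

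The machinery that builds collagen was described with 44 genes for hydroxylation and glycosylation, folding and export, propeptide removal, cross-linking and cell binding. In Cd81 over Adamdec1 fibroblasts 7 of 40 tested rose (17.5%) and 11 fell (27.5%), beside 11.6% and 12.0% of all genes tested. Pcolce2, an enhancer of the protease that trims procollagen, had 569, 641 and 654 CPM in Cd81 fibroblasts, against 4.32, 10.5 and 13.7 CPM in Adamdec1 fibroblasts (6.27, SE 0.25, edgeR adjusted p = 3.11e-07). The prolyl hydroxylase subunit P4ha3 (4.77, SE 0.54, edgeR adjusted p = 0.000162) and the lysyl oxidase relative Loxl3 (0.66, SE 0.13, edgeR adjusted p = 0.00449) also rose. P4ha3 was scarce in both classes, with 4.45, 4.85 and 4.46 CPM in Cd81 fibroblasts and 2, 0 and 1 UMIs in Adamdec1 fibroblasts. The prolyl 3-hydroxylase P3h2, which acts on type IV collagen, fell with 1.11, 0.263 and 0.514 CPM in Cd81 fibroblasts, against 10.1, 11.0 and 8.48 CPM in Adamdec1 fibroblasts (-4.22, SE 0.36, edgeR adjusted p = 2.86e-05). The integrin gene Itga2 (-1.69, SE 0.28, edgeR adjusted p = 0.00176) and the procollagen protease Adamts14 (-1.52, SE 0.22, edgeR adjusted p = 0.000842) fell. All 5 cross-linking enzymes changed, Loxl1 and Loxl3 upward and Lox, Loxl2 and Loxl4 downward.

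In telocyte-like cells over Adamdec1 fibroblasts 2 of 39 machinery genes rose (5.13%, beside 4.33% of all genes) and 9 fell (23.1%, beside 6.31%). P3h2 (1.08, SE 0.30, edgeR adjusted p = 0.0170) and the collagen receptor subunit Itga1 (0.89, SE 0.18, edgeR adjusted p = 0.00119) rose. Itga2 (-1.83, SE 0.41, edgeR adjusted p = 0.00312), the procollagen protease Adamts2 (-1.67, SE 0.24, edgeR adjusted p = 2.44e-05) and the galactosyltransferase Colgalt2 (-1.52, SE 0.46, edgeR adjusted p = 0.0317) fell. Itga1 had 174, 129 and 104 CPM in telocyte-like cells, against 77.9, 63.5 and 75.8 CPM in Adamdec1 fibroblasts. Telocyte-like cells held 24, 0 and 0 UMIs of Itga2 and 20, 0 and 0 of Colgalt2. These 2 falls thus rest on whole mesenchyme, as few GFP-low cells entered. Adamts14 (-2.06, SE 0.47, edgeR adjusted p = 0.00338) was lower in 2 of 3 libraries, with 17, 0 and 1 UMIs in telocyte-like cells.

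In Pi16 over Grem1 cells 10 of 38 machinery genes rose (26.3%, beside 9.14% of all genes) and 5 fell (13.2%, beside 10.8%). Adamts14 (1.23, SE 0.41, edgeR adjusted p = 0.0433), Colgalt2 (0.98, SE 0.16, edgeR adjusted p = 0.000343) and Loxl1 (0.55, SE 0.09, edgeR adjusted p = 0.000479) rose, and Itga1 (-1.28, SE 0.16, edgeR adjusted p = 3.15e-05), the cross-linking enzyme Lox (-1.12, SE 0.10, edgeR adjusted p = 9.94e-07) and the collagen receptor Ddr1 (-0.54, SE 0.17, edgeR adjusted p = 0.0384) fell. Lox had 42.5, 34.8 and 39.0 CPM in Pi16 cells, against 61.5, 78.1 and 80.5 CPM in Grem1 cells. Adamts14 had 2, 13 and 11 UMIs in Pi16 cells. Larger changes were called for P4ha3 (2.92, SE 0.38, edgeR adjusted p = 3.22e-05) and Loxl4 (-1.60, SE 0.27, edgeR adjusted p = 0.000484). Both went that way in only 2 of 3 libraries. In Nrg1/Wnt4 over Fgf10 cells 0 of 36 rose and 1 fell by edgeR, the lysyl hydroxylase Plod2 (-0.50, SE 0.13, edgeR adjusted p = 0.0260), and 6 had an unadjusted p under 0.05. That 1 gene is 2.78% of the list, beside 1.50% of all genes.

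Profiles were compared over the 8 classes of whole mesenchyme by Pearson's r of log levels. The nearest member was Col6a2 for Col6a1 (0.993), Col1a2 for Col3a1 (0.988), Col4a2 for Col4a1 (0.963) and Col4a6 for Col4a5 (0.895). Col8a1 and Col14a1 were each other's nearest (0.876). For Col15a1 and Col23a1 the best match was lower, Col13a1 at 0.604 and Col4a6 at 0.504. These values describe 8 classes of 1 library that share free RNA, and chains with over 100 UMIs in all. Type I chains did not keep a fixed ratio between libraries: per Col1a2 UMI, Cd81 fibroblasts had 0.631, 0.807 and 0.488 Col1a1 UMIs and Adamdec1 fibroblasts 0.612, 0.664 and 0.445.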

How the data were processed

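The deposited matrices hold UMI counts per gene and barcode before cell calling; the submitters' processing notes name Cell Ranger 3.0.2 and mm10. The gene and barcode lists are text. Whole-number counts were summed here and no further step of the authors is given in the sources used here. Barcodes with at least 1000 UMIs, 500 genes and at most 20% mitochondrial UMIs were kept, with no doublet caller; cells that passed more than 1 gate of different lineages (33 in whole mesenchyme) were left out, so doublets within a lineage remain. Gate limits were set on marker counts after these had been seen. Members, gene lists and tests were chosen with earlier results of these data known.

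UMIs were summed per library and class of at least 20 cells and fitted in R 4.3.3 by the quasi-likelihood test of edgeR 4.0.16 with the library as a block, after filterByExpr and TMM scaling, at a Benjamini-Hochberg threshold of 0.05 and with gate genes left out. The SE is the log2 difference over the square root of F. Classes compared come from the same library, which is why the library is a block. Per-library values are given for members past the threshold by 2-fold and members of at least 100 CPM in a class. Up to 3 machinery genes past the threshold are given each way with their fit. They are those of largest change that moved the same way in all 3 libraries. Genes of larger change that did not are named as such. The script was tested on simulated data. Alternatives were DESeq2 1.42.0, RLE factors, no filter, no block, 3000 UMIs per cell, stricter gates, equal cell numbers and each library left out. Figures used matplotlib 3.10.9.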

Additional observations from a re-analysis of the deposited data

Results flagged for a closer look

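In 14 cases a chain went one way in the whole mesenchyme library and the other way in both GFP-low libraries. With 1 library of the first kind these differences were not tested, and any difference between the sorts cannot be told apart from a difference between libraries. In telocyte-like cells over Adamdec1 fibroblasts the log2 differences in whole mesenchyme were -0.92 for Col5a3, -0.68 for Col5a1, -0.61 for Col1a1, -0.48 for Col3a1 and -0.42 for Col4a1. GFP-low replicate 1 had 0.35, 0.25, 0.02, 0.04 and 0.17, and replicate 2 had 0.44, 0.31, 0.15, 0.21 and 0.36. The GFP-low values rest on 24 and 23 telocyte-like cells.

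In Pi16 over Grem1 cells whole mesenchyme had 0.44 for Col4a5, 0.39 for Col18a1, 0.20 for Col16a1, -1.11 for Col12a1 and -0.023 for Col3a1. The Pi16 cells of that library numbered 31 and held 12, 23, 21, 5 and 1374 UMIs of these genes. Col4a5 and Col18a1 are among the chains reported as lower in Pi16 cells, a direction that the GFP-low libraries alone gave, with -0.50 and -0.84 for Col4a5 and -0.34 in each for Col18a1. In Nrg1/Wnt4 over Fgf10 cells whole mesenchyme had 0.16 for Col4a2, 0.10 for Col6a3, 0.039 for Col4a1 and 0.041 for Col6a2, while the GFP-low values ran below 0.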

How the results depend on the processing

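For Cd81 over Adamdec1 fibroblasts the 5 rising and 15 falling chains became 5 to 7 and 12 to 17 over 8 alternatives, and 5 to 6 and 14 to 15 with each library left out. With no block for the library 5 rose and 12 fell there. Calls of the finer comparisons were less stable. For Pi16 over Grem1 cells (4 rising, 6 falling), DESeq2 called 1 and 1, no block 0 and 0, and no filter on low counts 3 and 10; leaving out a library gave 1 to 6 and 2 to 8. For Nrg1/Wnt4 over Fgf10 cells (4 and 2), DESeq2 called 1 and 0, no block 0 and 0, and cells of at least 3000 UMIs 2 and 3; leaving out a library gave 1 to 5 and 1 to 2. For telocyte-like cells over Adamdec1 fibroblasts (5 and 4), an alternative set chosen after seeing the data, DESeq2 called 3 and 2, no block 4 and 1, and equal cell numbers 2 and 2; leaving out a library gave 2 to 5 and 2 to 5. With equal cell numbers in the telocyte comparison, 19 of the 26 chains were still tested, and each kept its call or lack of one. The calls lost there were of chains no longer tested. The cause of the other losses was not tested, except that fewer cells or libraries entered some fits. No single chain changed direction past the threshold. Stricter gates left under 20 cells in a sum of the Nrg1/Wnt4 and telocyte comparisons and were not run there. Levels in vessels and glia are from 1 library of 52 to 744 cells a class, so their intervals hold no spread between animals.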
